A study of Mus musculus with 6 samples.

Results

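The B-lineage transcription factors described here are 10 genes, Pax5, Ebf1, Tcf3, Ikzf1, Ikzf3, Foxo1, Lef1, Spib, Bach2 and Pou2af1, out of 22180 genes with a probe set of their own on the arrays. They were chosen by name, with earlier results of these data known. A probe set (a group of probes whose signals are summarised into 1 value) was taken where the platform annotation pairs it only with that gene, which gave 11 probe sets, and the brightest over the 6 arrays stood for the gene. The cells were mouse BCR-ABL+ B-ALL cells, a B-cell acute lymphoblastic leukaemia driven by the BCR-ABL fusion kinase. A group of 3 samples received dihydroartemisinin (DHA), to which the body converts artemisinin antimalarials, at 312 nM for 4 h, and the other group of 3 received dimethyl sulphoxide (DMSO), the vehicle. The growth protocol names p185+ and p185T315I+Arf-/- cells as well as p53-/- cells, p185 being the shorter BCR-ABL protein and T315I a substitution in its kinase domain that confers drug resistance. The labels do not tie these genotypes to single arrays, so all 6 samples share at least BCR-ABL and their further alleles are unknown here. Whether the samples came from separate cultures is not stated, so a p here reflects only how far these 6 samples scatter, possibly for technical reasons.

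B-cell identity is built by a small circuit of transcription factors. The E protein E2A, encoded by Tcf3, and EBF1 open the programme, EBF1 switches on Pax5, and PAX5 in turn sustains Ebf1, activates genes of the B-cell receptor and silences genes of other lineages. IKAROS and AIOLOS (Ikzf1 and Ikzf3) are zinc finger proteins that curb proliferation at the pre-B stage, FOXO1 drives the recombinase genes, and in human and mouse B-ALL several of these factors are lost or mutated as tumour suppressors.

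The labels give a B-lineage leukaemia, and its markers and those of other cells were read as levels of single probe sets. Of 10 tested markers of precursor B cells, Cd79a and Cd79b, which encode the signalling chains of the B-cell receptor, had DMSO means of 12.70 and 12.63 on the log2 scale, and Igll1, which encodes the lambda5 surrogate light chain, had 13.04. The precursor marker Vpreb1, which encodes another surrogate light chain protein, was dim at 4.78. Its relatives Vpreb2 and Vpreb3, which are not in that marker list, had DMSO means of 8.54 and 9.03. Dntt, which encodes a polymerase of V(D)J joining, had 8.15. The remaining tested precursor markers lay between 10.76 (Il7r) and 12.72 (Cd24a). Markers of mature B cells and of other lineages are given only where the 6-array mean reached the filter of 4.52, so the dimmest are left out. Of those with a probe set of their own, 8 of 10 mature B, 8 of 13 T and NK and 9 of 13 myeloid markers were tested. So were 5 of 6 erythroid and megakaryocyte and 8 of 10 stromal and endothelial markers. The 8 mature B markers had DMSO means from 5.65 (the chemokine receptor gene Ccr6) to 10.57 (Cd22), the brightest of them as bright as several of the factors. DMSO means of 8 tested T and NK cell markers reached from 4.56 (Cd7 and the T-cell receptor subunit gene Cd3d) to 7.91 (the adaptor gene Lat), and those of 9 myeloid markers from 4.49 (Itgam) to 5.90 (the Fc receptor gene Fcgr3). The 5 tested erythroid and megakaryocyte markers reached from 4.73 (the factor gene Gata1) to 5.77 (Gp9), and the 8 stromal and endothelial markers from 4.96 (Pdgfrb) to 9.34 (Pecam1). Log2 levels summed over the 10 precursor B markers ran from 107.96 to 108.31 with DMSO and from 107.46 to 107.86 with DHA, without overlap. Groups did not overlap in 15.8% of all tested genes taken singly, and the share for sums was not tested. Summed over the 10 factors, levels ran from 107.64 to 109.21 with DMSO and from 108.75 to 108.94 with DHA. Array medians over all 41345 probe sets lay between 5.25 and 5.31.

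None of the 10 factors was called changed by DHA. Each was bright on all 6 arrays, the dimmest single value being 9.89 for Foxo1, and the differences between the group means ran from -0.16 for Spib to 0.13 for Ebf1 on the log2 scale. By limma, with Benjamini-Hochberg adjustment over 15526 tested genes, 0 of 10 were called (adjusted p of 0.05 or less), where 0.0902% of all tested genes did. At an unadjusted p under 0.05 there were again 0 of 10, against 12.0% of all tested genes. That count was 2 (Pax5 and Ebf1) without DMSO replicate 1, and 1 (Ebf1) without DHA replicate 2, after quantile normalization and with trend and robust moderation. In 8 of 10 the mean was higher with DHA, against 51.2% of all tested genes, and the median log2 fold change of the 10 was 0.034, against 0.0027 over all. These are RNA levels of whole cultures, in which fewer cells of a type and less RNA per cell cannot be told apart. Probe sets bind with different strength, so a brighter gene need not have more RNA than a dimmer one.

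**Figure D1:**
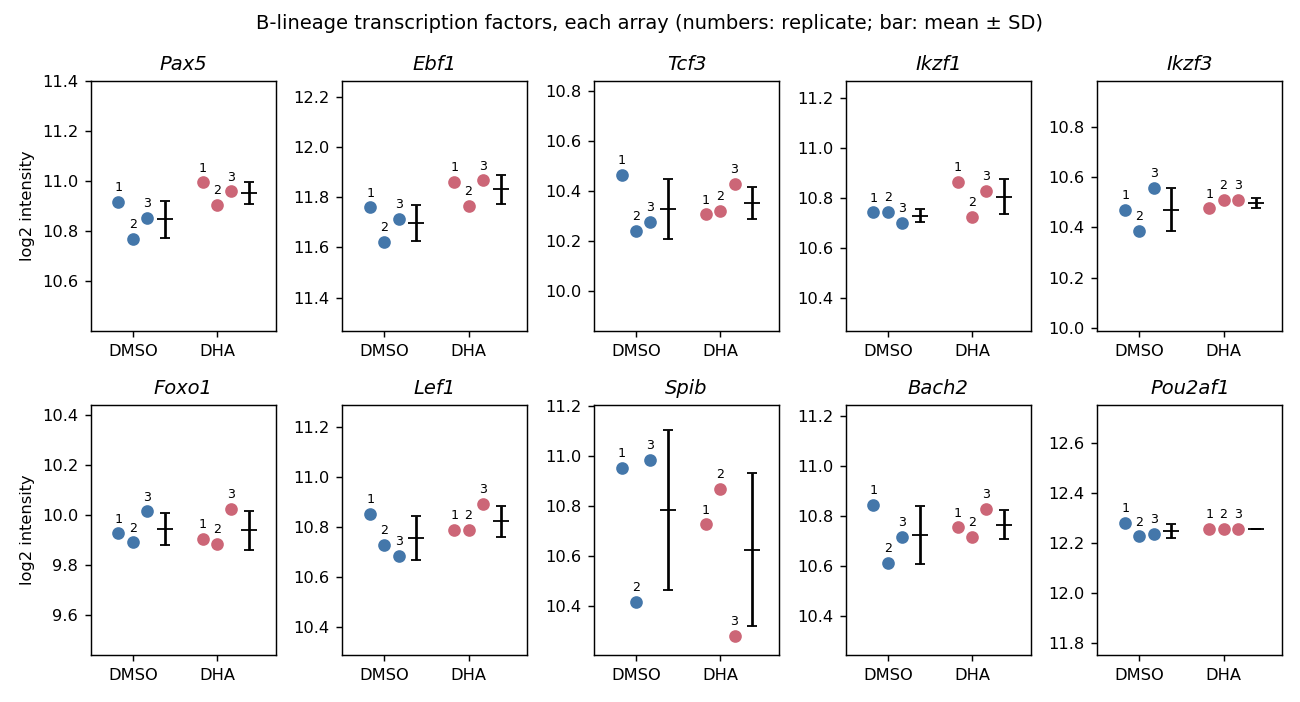
Log2 intensity of the 10 factors on each of the 6 arrays, with DMSO in blue, DHA in red, the replicate number above each point, and the mean ± SD (n = 3) as a black bar; each panel spans 1 log2 unit around the gene's mean. Ebf1 has every DHA point above every DMSO point, Spib spreads from 10.28 to 10.98, and the other groups overlap.

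Among the factors that open the B-cell programme, Ebf1 came nearest to a difference. EBF1 is a pioneer factor that opens B-cell chromatin. Its probe set (17248691) read 11.76, 11.62 and 11.71 with DMSO and 11.86, 11.77 and 11.87 with DHA. The lowest DHA array lay just above the highest DMSO array, so the groups did not overlap. Ebf1 was the only member of which this holds, 1 of 10, where every DHA array lay above every DMSO array in 7.64% of all tested genes. Means were 11.70 ± 0.071 and 11.83 ± 0.057 (SD, n = 3 per group), a log2 fold change of 0.13 (95% interval -0.0013 to 0.27, SE 0.057, adjusted p = 0.416 by limma). In linear terms the estimate was 9.79% with an interval from -0.0866% to 20.6%.

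Pax5 (17424884), whose protein commits progenitors to the B lineage, read 10.92, 10.77 and 10.85 with DMSO and 11.00, 10.91 and 10.96 with DHA. DMSO replicate 1 lay above DHA replicate 2, so the groups overlapped narrowly. The log2 fold change was 0.11 (95% interval -0.026 to 0.24, SE 0.056, adjusted p = 0.506 by limma). Tcf3 (17242931), whose E2A protein binds E-box sequences with EBF1 at many B-cell genes, read 10.47, 10.24 and 10.28 with DMSO and 10.31, 10.32 and 10.43 with DHA. The highest of its 6 values was a DMSO array and the groups overlapped fully. Its log2 fold change of 0.024 (adjusted p = 0.922 by limma, SE 0.073) changed sign when DMSO replicate 2 (-0.019), DMSO replicate 3 (-0.0013) or DHA replicate 3 (-0.013) was left out.

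The IKAROS family genes did not pass the test. Ikzf1 (17247336) read 10.74, 10.74 and 10.70 with DMSO and 10.86, 10.72 and 10.83 with DHA. DHA replicate 2 sat inside the DMSO range while the other DHA arrays sat above it. The log2 fold change was 0.077 (95% interval -0.049 to 0.20, SE 0.053, adjusted p = 0.609 by limma). Ikzf3 (17268820) read 10.47, 10.39 and 10.56 with DMSO and 10.48, 10.51 and 10.51 with DHA, so that its DHA arrays lay inside the DMSO range. The log2 fold change was 0.027 (adjusted p = 0.884 by limma, SE 0.057) and was -0.016 without DMSO replicate 2.

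Foxo1 encodes a factor that AKT keeps out of the nucleus and that drives Rag1, Rag2 and Il7r. Its brighter probe set (17397497) read 9.93, 9.89 and 10.02 with DMSO and 9.91, 9.89 and 10.03 with DHA. The groups covered nearly the same range, and the log2 fold change was -0.0054 (95% interval -0.15 to 0.14, SE 0.060, adjusted p = 0.981 by limma). The sign turned without DMSO replicate 3 (0.030), DHA replicate 1 (0.011) or DHA replicate 2 (0.022). A dimmer probe set of Foxo1 (17405165) read 6.69, 6.59 and 6.59 with DMSO and 6.67, 6.46 and 6.78 with DHA, a difference of 0.013 (SE 0.094; adjusted p = 0.983 by limma over 28941 probe sets). Neither probe set separated the groups. Lef1 (17402662), which encodes the partner of beta-catenin in Wnt signalling and is a target of PAX5 in pro-B cells, read 10.85, 10.73 and 10.68 with DMSO and 10.79, 10.79 and 10.89 with DHA. The groups overlapped, with a log2 fold change of 0.068 (95% interval -0.081 to 0.22, SE 0.063, adjusted p = 0.707 by limma).

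Spib varied far more than any other member. It encodes an ETS factor related to PU.1 that acts with IRF4 and IRF8. The probe set (17490274) read 10.95, 10.42 and 10.98 with DMSO and 10.73, 10.87 and 10.28 with DHA. DMSO replicate 2 and DHA replicate 3 were low, and the 4 remaining arrays lay between 10.73 and 10.98, so the low arrays were 1 of each group. The SDs were 0.32 and 0.31, whereas the median SD over all tested genes was 0.079 with DMSO and 0.074 with DHA. The log2 fold change was -0.16 (95% interval -0.64 to 0.32, SE 0.20, adjusted p = 0.79 by limma). It moved to -0.34 without DMSO replicate 2 and to 0.013 without DHA replicate 3.

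Genes were also ranked by how near their 6 values lay to those of Spib. Nearness was the root mean square difference after each gene was centred on its own mean, over 6 arrays and 15525 other genes. Gpr12, which encodes an orphan G protein-coupled receptor, was nearest at 0.052 and read 7.60, 6.99 and 7.65 with DMSO and 7.24, 7.51 and 6.89 with DHA. Ltbp4, which encodes a matrix protein that binds latent TGF-beta, followed at 0.067 and the membrane protein gene Emp3 at 0.072. In each of the 3, DMSO replicate 2 was the lowest DMSO array and DHA replicate 3 the lowest DHA array, as in Spib. The ranking selects for that likeness, so it is no separate result.

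**Figure D2:**
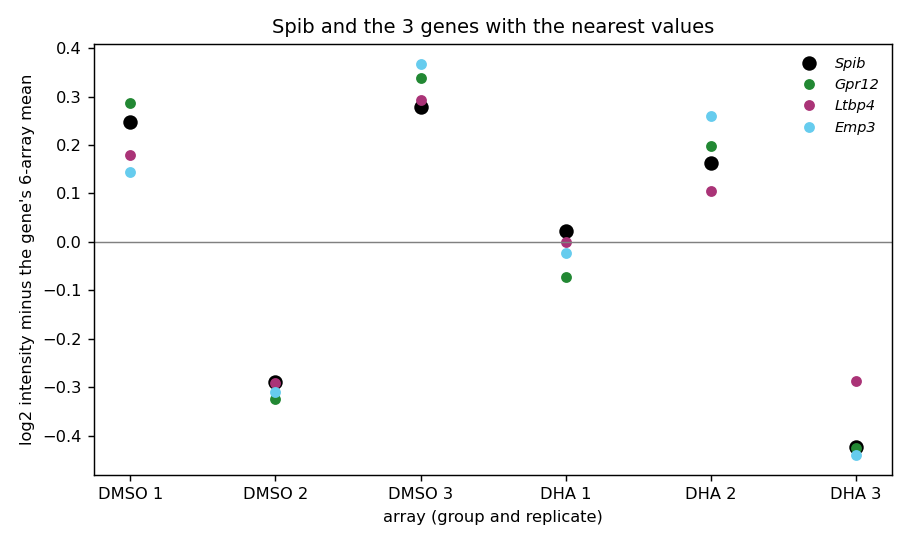
Log2 intensity minus each gene's 6-array mean, for Spib in black and for Gpr12, Ltbp4 and Emp3, the genes nearest to it over the 6 arrays. All 4 genes lie below their mean on DMSO replicate 2 and DHA replicate 3 and above it on DMSO replicates 1 and 3. The 3 genes were picked for this likeness.

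Bach2 encodes a haem-binding repressor that restrains plasma cell fate and, in pre-B cells, takes part in the checkpoint at the pre-B-cell receptor. The probe set (17412374) read 10.84, 10.61 and 10.71 with DMSO and 10.75, 10.71 and 10.83 with DHA, with all DHA arrays inside the DMSO range. The log2 fold change was 0.042 (adjusted p = 0.85 by limma, SE 0.070) and was -0.014 without DMSO replicate 2. A probe set that the annotation assigns to Bach2 together with Bach2os (17423741) was not used for the gene. Pou2af1 (17517209), which encodes the B-cell coactivator OCA-B that binds with octamer factors, read 12.28, 12.23 and 12.24 with DMSO and 12.26 on each DHA array, the 3 deposited DHA values being identical. Its log2 fold change was 0.0099 (95% interval -0.091 to 0.11, SE 0.042, adjusted p = 0.949 by limma), and -0.00070 without DMSO replicate 2. Identical values on all 3 DHA arrays occurred in 1.78% of tested genes, and the SE given for Pou2af1 is limma's, which draws on the spread of other genes as well.

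The intervals bound the change only as far as these 6 samples scatter, since separate cultures are not stated. All 10 intervals lay inside a 2-fold change in either direction. Spib had the widest, and the bounds of the other 9 ran from -0.15 to 0.27. The median SE of the 10 was 0.058, against 0.068 over all tested genes.

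**Figure D3:**
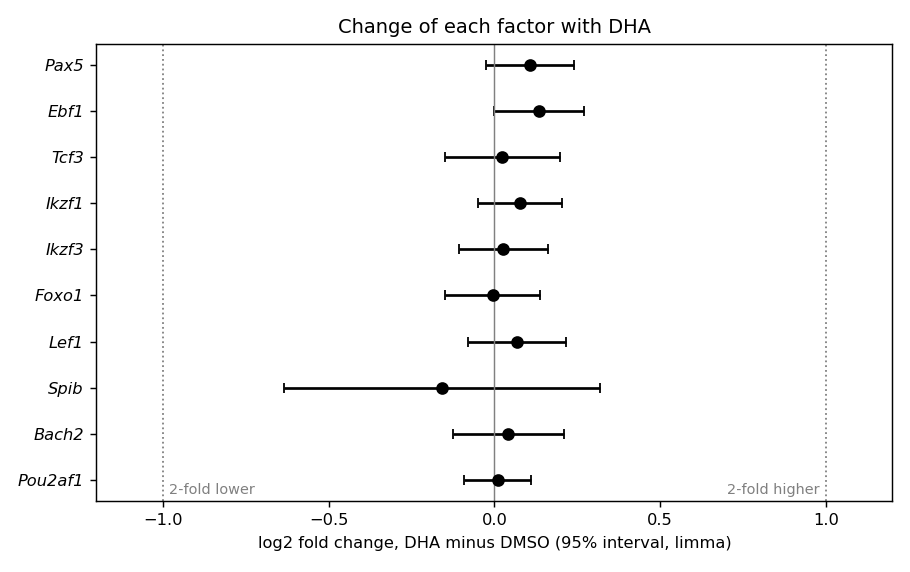
Log2 fold change of each factor, DHA minus DMSO, with limma's 95% interval, which is not widened for testing many genes; dotted lines mark 2-fold. All 10 intervals include 0, Ebf1 by the smallest margin with a lower bound of -0.0013, and that of Spib is the widest.

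How many means were higher with DHA depended on 1 vehicle array. Without DMSO replicate 2, 4 of 10 means were higher with DHA, against 50.6% of all tested genes, and the median log2 fold change of the 10 was -0.0074. On DMSO replicate 2 all 10 factors lay below their own 6-array mean, with deviations from -0.29 for Spib to -0.023, and a median of -0.099. Over all tested genes, 51.1% lay below their own mean on that array, with a median of -0.0018. Among the 1688 tested genes at least as bright as the dimmest factor, a group chosen after the values were seen, 41.5% lay below and the median was 0.015. DHA replicate 3 stood at the other end, with 9 of 10 factors above their mean, Spib excepted, and a median of 0.073. On that array 46.6% of all tested genes lay below their own mean, with a median of 0.0052, and 50.5% of the 1688 bright genes did. Leaving out DMSO replicate 2 kept Pax5 (0.068), Ebf1 (0.096), Ikzf1 (0.085) and Lef1 (0.054) higher with DHA, and 0 of 10 passed the test on leaving out any 1 of the 6 arrays.

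**Figure D4:**
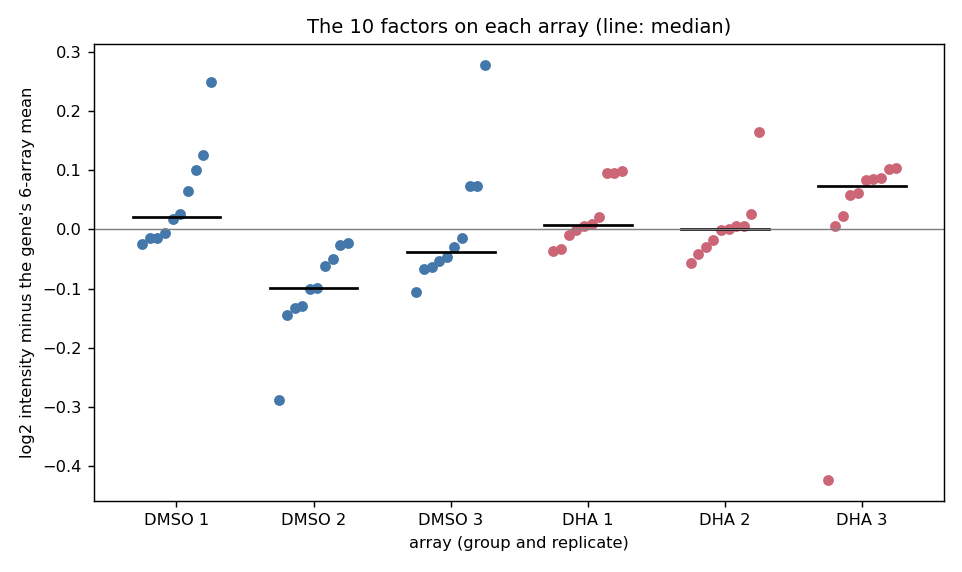
Each point is 1 of the 10 factors on 1 array, as log2 intensity minus the gene's 6-array mean, with the median as a black line. All 10 points of DMSO replicate 2 lie below 0 (median -0.099), and 9 of 10 of DHA replicate 3 lie above it (median 0.073).

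The stretches before the start sites of the factors were searched for the motifs of the factors themselves, because the circuit is one of mutual regulation. RefSeq (GRCm38.p6) gave 14 windows of 250 bases for 9 of the 10 genes, Ikzf3 being without an entry. Both strands were searched for CAGGTG (the E-box E2A prefers), TCCCNNGGGA (EBF1), ATGCAAAT (the octamer of POU factors and OCA-B), AGGAAGT (ETS factors such as SPIB), TGTTTAC (FOXO), CTTTGAT (LEF1), TGGGAA (IKAROS) and TGAGTCA (MAF and AP-1, the core of the BACH2 site). None of these motifs overlapped another in the windows. Matches stood in 3 of the 14 windows, 1 match each. The EBF1 letters stood 92 bases before the start of Foxo1, and were in 0.779% of 32851 windows. The ETS letters stood 13 bases before a downstream start of Lef1, and were in 7.69% of windows. The IKAROS letters, read on the other strand, stood 207 bases before the second start of Ebf1, and were in 21.6% of windows. The E-box, which 17.2% of windows held, was in none of the 14. The 3 matches are shown with capitals marking the motif letters, the Ebf1 window only as the 30 bases around its match. Foxo1 lies at chr3:52268087-52268336 (+), Lef1 at chr3:131156044-131156293 (+) and Ebf1 at chr11:44620009-44620038 (+).
Foxo1: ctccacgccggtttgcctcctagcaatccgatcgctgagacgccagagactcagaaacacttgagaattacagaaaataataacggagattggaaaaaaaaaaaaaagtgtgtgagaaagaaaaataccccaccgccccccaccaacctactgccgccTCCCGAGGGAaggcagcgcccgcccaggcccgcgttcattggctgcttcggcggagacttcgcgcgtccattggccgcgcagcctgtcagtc
Lef1: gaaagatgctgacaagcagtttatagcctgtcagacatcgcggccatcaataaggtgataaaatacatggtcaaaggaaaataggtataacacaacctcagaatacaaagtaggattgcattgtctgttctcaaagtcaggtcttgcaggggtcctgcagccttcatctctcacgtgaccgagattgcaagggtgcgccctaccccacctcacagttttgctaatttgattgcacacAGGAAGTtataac
Ebf1: agtcggagcctaTTCCCAcgccctggcctt

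A match of letters is no binding site, and none of the 3 genes was called changed. Foxo1, with the EBF1 letters, had the log2 fold change nearest to 0 of the 10, and Ebf1, with the IKAROS letters, the highest.

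Genes that work with the factors are described by their counts, from lists written with earlier results of these data known. These counts are to be read beside the 12.0% of all tested genes at an unadjusted p under 0.05 and the 15.8% whose groups did not overlap. Over all 15526 tested genes, 1186 lay wholly above and 1272 wholly below with DHA. Wholly above and wholly below were 2 and 3 of 23 family members and partners, and 0 and 3 of 18 inhibitors and corepressors. For activated targets they were 0 and 5 of 24, and for genes PAX5 represses 0 and 0 of 13. The BACH-site list had 1 and 0 of 9, the beta-catenin list 0 and 2 of 8, and the plasma cell list 1 and 1 of 8. Of 23 tested family members and DNA-binding partners, 0 rose and 0 fell by limma, with 4 at an unadjusted p under 0.05 and a median log2 fold change of -0.0100. The interferon regulatory factor IRF4, a partner of PU.1 and SPIB, had the smallest p. Irf4 read 10.23, 10.15 and 10.25 with DMSO and 10.65, 10.45 and 10.56 with DHA, with every DHA array higher (log2 fold change 0.34 with SE 0.065, adjusted p = 0.126 by limma). Its relative Irf8 had 0.28 (adjusted p = 0.343 by limma, SE 0.099). The small MAF gene Mafk, whose protein pairs with BACH2 on DNA, had -0.19 (limma adjusted p = 0.321). Tcf7l1, of the LEF and TCF family, had -0.18 (limma adjusted p = 0.354) and was dim, with a DMSO mean of 5.94.

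Inhibitors and corepressors of the factors showed no call either. Of 18 tested, 0 rose and 0 fell, with 1 at an unadjusted p under 0.05 and a median of -0.025. That gene was Id2, whose protein blocks E2A from binding DNA. It read 7.54, 7.38 and 7.14 with DMSO and 6.99, 6.98 and 6.77 with DHA, each DHA array being lower than every DMSO array (log2 fold change -0.44 with SE 0.11, adjusted p = 0.218 by limma). Id3, of the same family, had -0.22, Hdac1 -0.13 and Hdac3 -0.079, the last 2 encoding deacetylases of corepressor complexes (limma adjusted p = 0.504, 0.43 and 0.549). Id3 had -0.12 without DHA replicate 1 and -0.14 without DMSO replicate 3, and Hdac3 -0.052 without DMSO replicate 2.

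Other lymphoid transcription factors spread to both sides. Of 20 tested, 0 rose and 0 fell, with 5 at an unadjusted p under 0.05 and a median of 0.024. Foxp1, which supports early B-cell development, read 10.92, 10.86 and 10.98 with DMSO and 11.11, 11.15 and 11.15 with DHA (log2 fold change 0.22 with SE 0.049, adjusted p = 0.166 by limma). Bcl6, a repressor that protects pre-B cells at recombination, had 0.37 (adjusted p = 0.314 by limma, SE 0.12) but was dim, with a DMSO mean of 5.72. Sox4, which supports pro-B cell survival, had -0.40 (adjusted p = 0.194 by limma, SE 0.094) and the ETS factor gene Erg -0.21 (adjusted p = 0.224 by limma, SE 0.056). In each of these 4 genes the groups did not overlap, and none of the 4 passed the test. Over the 20 genes, 3 lay wholly above and 3 wholly below.

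Genes that PAX5, EBF1, E2A or FOXO1 activate had a median log2 fold change of -0.015, with 0 of 24 tested rising or falling and 3 at an unadjusted p under 0.05. Rag2, a FOXO1 target that encodes 1 of the recombinase chains, read 7.59, 7.64 and 7.92 with DMSO and 7.21, 7.45 and 6.91 with DHA. Its DHA arrays were all lower (log2 fold change -0.53 with SE 0.15, adjusted p = 0.253 by limma), while Foxo1 itself had -0.0054. Cd24a, a surface marker of precursors, had -0.16, Igll1 -0.12 and Dntt, which encodes the polymerase that adds bases at V(D)J joints, -0.23 (limma adjusted p = 0.32, 0.363 and 0.461). Cd24a had -0.030 as the mean of its probe sets, and Dntt -0.34 without DMSO replicate 3. The B-cell receptor chain genes Cd79a and Cd79b had 0.012 and -0.00073.

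Genes that PAX5 represses stood at a median of -0.068, with 0 of 13 tested rising or falling and 0 at an unadjusted p under 0.05. Smallest p in that list were those of Emb (-0.16), the chemokine gene Ccl3 (0.18), Lmo2 (-0.14) and the receptor gene Notch1 (-0.12), with limma adjusted p from 0.549 to 0.596. Emb and Ccl3 were dim, with DMSO means of 5.47 and 4.53, the latter close to the filter of 4.52. Each rested in part on 1 array: Emb had -0.058 without DHA replicate 3, Ccl3 0.086 without DHA replicate 1, Lmo2 -0.057 without DHA replicate 2 and Notch1 -0.048 without DHA replicate 1 and -0.20 without DHA replicate 3. The plasma cell list, which shares Irf4 with the partners, held 0 called genes of 8 tested and 2 at an unadjusted p under 0.05. Mzb1, a chaperone cofactor for antibody assembly, had -0.21 (adjusted p = 0.206 by limma, SE 0.051), Xbp1 -0.077 and Sdc1 -0.12. Prdm1, which encodes the plasma cell regulator BLIMP-1 that BACH2 represses, had 0.017 and was dim, with a DMSO mean of 5.54. Leaving out 1 array moved Sdc1 to between -0.061 (without DHA replicate 1) and -0.20 (without DMSO replicate 3), and the mean of its probe sets gave -0.064. Xbp1 had -0.044 without DHA replicate 1 and -0.051 without DMSO replicate 1.

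Targets of sites that BACH proteins can repress held the largest difference of these lists. Hmox1, which encodes the haem-degrading enzyme haem oxygenase 1, read 5.42, 5.29 and 5.31 with DMSO and 6.50, 5.87 and 6.38 with DHA (log2 fold change 0.91 with SE 0.16, adjusted p = 0.113 by limma). Every DHA array was higher, and without DHA replicate 2, the lowest of them, Hmox1 passed the test (1.10; limma adjusted p = 0.0277). Of the 9 tested genes 0 passed, 2 had an unadjusted p under 0.05, and 6 were lower with DHA, so that the median was -0.058. Txnrd1 had -0.32, Gclm -0.16 and Slc48a1 -0.093, the first and second being -0.21 and -0.10 without DHA replicate 1. Among 8 tested targets of beta-catenin with LEF1 or TCF factors, 0 passed and 2 had an unadjusted p under 0.05. These were Znrf3 (-0.19, limma adjusted p = 0.267) and Ccnd1 (-0.19, limma adjusted p = 0.343). Rnf43 had 0.18 (0.11 without DMSO replicate 1) and Notum 0.11 (0.068 without DHA replicate 1). Both were dim, with DMSO means of 5.42 and 5.08.

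**Figure D5:**
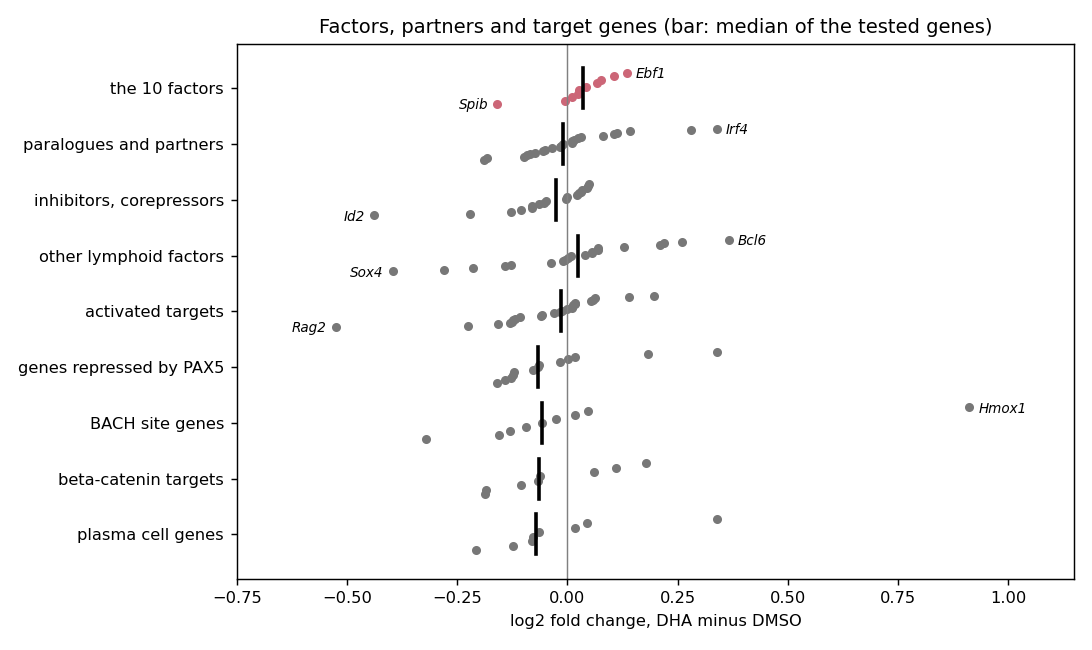
Log2 fold change, DHA minus DMSO, of every tested gene in 9 lists, with 1 point per gene, the 10 factors in red and the median of each list as a black bar. The factors lie between -0.16 and 0.13, and the widest points elsewhere are Hmox1 (0.91) and Rag2 (-0.53), none of them called changed.

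Markers of mature B cells (8 tested), T and NK cells (8), myeloid cells (9), erythroid cells and megakaryocytes (5) and stroma (8) held 0 called genes by limma, with 0, 0, 0, 0 and 2 at an unadjusted p under 0.05. Their summed levels overlapped between the groups in each list but the erythroid and stromal ones. Those ran from 26.71 to 26.89 with DMSO and from 26.97 to 27.28 with DHA, and from 46.880 to 47.029 with DMSO and from 47.032 to 47.597 with DHA. The stromal sums separated only narrowly. Pecam1, the brightest of these 8 markers, had a log2 fold change of 0.18 (adjusted p = 0.22 by limma). It was the 1 stromal marker wholly above with DHA, 1 lay wholly below, and 4 of the 8 means were lower. Sums without Pecam1 were not tested. The erythroid markers were dim, and how often sums of other genes separate was not tested. The part of other cell types in the factors' values was not tested either.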

How the data were processed

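RNA from 6 samples was hybridised to Affymetrix arrays as biotin-labelled cRNA, per the labels' protocols. The authors deposited log2 intensities, 1 per probe set and sample, made with RMA and Partek version 6.6, per the submitters' processing notes. Tool settings were not given in the sources used here. Summarisation by RMA can give the same value to several arrays: 35.2% of tested genes, 3 of the 10 factors among them, share a value between arrays. The extraction protocol mentions 2 h and 4 h, and the treatment protocol 4 h alone.

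Of 41345 probe sets, 23521 were paired with 1 gene, 1814 with several and 16010 with none named. Symbols were updated through the Entrez identifier to RefSeq (23328 matched). The brightest probe set stood for a gene, and 6654 genes were left out because their 6-array mean lay under the 30th percentile. All 10 factors passed that filter. DHA and DMSO were compared over 15526 genes in R 4.3.3 with limma 3.58.1 (eBayes, default settings, two-sided, 4 residual and 2.77 prior degrees of freedom). The fit was tested on simulated data. Intervals are at 95%. With no scanner files used here, the number of arrays limits the precision.

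The members and lists were chosen with earlier results of these data known. Text names all 10 members, up to 4 tested genes with the smallest p in each list other than the marker lists, called genes, and the 3 genes nearest to the member with the largest difference. Other named genes were chosen after their values were seen. They are Cd79a, Cd79b, Vpreb1, Vpreb2, Vpreb3, Prdm1, Il7r, Ms4a1, Ltb and the dimmest and brightest mature B, T and NK, myeloid, erythroid and stromal markers. Alternatives left out each array, changed the filter, scaling, probe set rule, variance model, weights or threshold, or added a term for a title code that DMSO replicate 3 and DHA replicate 2 share. Leaving out both of these, and all alternatives for the list genes, were chosen after seeing the data. In the lists, genes without a probe set of their own were not analysed here.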

Additional observations from a re-analysis of the deposited data

How the results depend on the processing

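No factor passed the test under any of 15 alternatives or at an adjusted p of 0.1. Among all tested genes, 14 were called. Quantile normalization gave 63, median centring 52, trend with robust moderation 62, the title-code term 41, and dropping both samples of that code 0, with 1569 genes at an unadjusted p under 0.05 by limma. Filtering at the 50th percentile gave 62, no filtering 5, and an adjusted p of 0.1 gave 80. Single arrays left out in turn gave 0 to 24. Filters and left-out samples alter how many genes or samples are tested. For the scaling and variance settings the cause was not tested. Leaving out 1 array gave 0 to 1 called list genes, the 1 being Hmox1 without DHA replicate 2.

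Log2 fold changes of Pax5, Ebf1, Ikzf1 and Lef1 stayed above 0 in each alternative. With single arrays left out, the sign changed within -0.019 to 0.093 for Tcf3, -0.016 to 0.071 for Ikzf3, -0.049 to 0.030 for Foxo1, -0.34 to 0.013 for Spib, -0.014 to 0.10 for Bach2 and -0.00070 to 0.025 for Pou2af1. Foxo1 was also 0.0036 with the mean of its probe sets and 0.057 without both samples of the title code. The median of the 10 ranged from -0.0074 to 0.088 on leaving out 1 array. No paired analysis was possible because the groups share only 1 title code and replicate numbers came from accession order.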
